A study of Homo sapiens with 6 samples.

Results

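Open chromatin was described at 10 genes of the NRF2 response to oxidative stress in hTERT-RPE1, a wild-type human line derived from retinal pigment epithelium and immortalised with telomerase. The genes were chosen by name: NFE2L2, KEAP1, HMOX1, NQO1, GCLC, GCLM, TXNRD1, SLC7A11, SRXN1 and SOD2, out of 19970 protein-coding genes on chromosomes 1 to 22 and X. Their regions were the ATAC-seq peaks that overlap a gene's interval or lie within 20 kb of it, which held 101 of 142865 peaks of the R1 list and 94 of 134351 of the R2 list. Joined where an R1 and an R2 peak overlap by at least 1 bp, these made 106 regions of 151534 in the series, and a joined region with at least 1 peak of each list is called shared. The study has 6 ATAC-seq libraries by their titles, 3 in set R1 and 3 in set R2, all of this wild-type line, with no treatment named. What separates the sets is not stated, no sample is labelled as stressed or NRF2-activated, and each set was deposited as 1 merged peak list. Each value below therefore belongs to 1 pooled list, without a spread between replicates and without a test.

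NRF2, the product of NFE2L2, is a transcription factor that KEAP1 holds in check by presenting it to a CUL3 ubiquitin ligase for degradation. Oxidants and electrophiles modify KEAP1, NRF2 then builds up, pairs with small MAF proteins and binds antioxidant response elements at genes for glutathione synthesis, the thioredoxin system, quinone reduction and haem breakdown. The retinal pigment epithelium lives under light and high oxygen and handles oxidised lipid from photoreceptors, and this pathway is among its known defences. SOD2, the mitochondrial superoxide dismutase, is an oxidative stress gene better known as a target of NF-kappaB.

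The sequences just before the starts of 3 members are shown first because they carry the element NRF2 is known for or because the results turn on them. They are from RefSeq on GRCh38.p14, run from 250 bases before a start to the start itself (base 0), and are written 5′ to 3′ on the strand of the gene. Capitals mark each match on either strand to TGACNNNGC, the core of the antioxidant response element, written as its reverse complement where it lies on the other strand. The GCLM sequence is chr1:93909430-93909680 on the minus strand. The TXNRD1 sequences are chr12:104215529-104215779 and chr12:104286782-104287032 on the plus strand. That of NQO1, which holds no match, is chr16:69726560-69726810 on the minus strand, and the known element of NQO1 lies farther upstream than this stretch.
GCLM: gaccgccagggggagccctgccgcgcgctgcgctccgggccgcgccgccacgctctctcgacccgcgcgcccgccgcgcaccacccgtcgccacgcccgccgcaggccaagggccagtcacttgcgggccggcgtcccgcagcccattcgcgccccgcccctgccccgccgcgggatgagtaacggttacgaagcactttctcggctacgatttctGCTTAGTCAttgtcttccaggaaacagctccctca
TXNRD1 first start: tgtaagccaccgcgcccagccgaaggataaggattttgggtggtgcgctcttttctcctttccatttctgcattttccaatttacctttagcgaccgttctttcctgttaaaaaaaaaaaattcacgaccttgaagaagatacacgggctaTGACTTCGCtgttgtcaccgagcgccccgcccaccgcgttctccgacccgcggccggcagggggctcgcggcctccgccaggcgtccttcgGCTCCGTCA
TXNRD1 second start: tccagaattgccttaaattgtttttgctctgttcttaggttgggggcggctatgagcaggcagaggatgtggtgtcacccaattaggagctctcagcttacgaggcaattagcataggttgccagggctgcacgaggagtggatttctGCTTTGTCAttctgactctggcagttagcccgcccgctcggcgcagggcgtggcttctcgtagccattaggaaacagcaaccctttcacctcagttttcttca
NQO1: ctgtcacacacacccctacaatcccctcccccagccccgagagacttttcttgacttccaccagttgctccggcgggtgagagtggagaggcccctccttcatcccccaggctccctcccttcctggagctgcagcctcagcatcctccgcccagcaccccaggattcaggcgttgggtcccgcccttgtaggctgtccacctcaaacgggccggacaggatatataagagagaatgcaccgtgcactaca

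All 8 members with a RefSeq start window (250 bases before to 50 after a start, 14 windows in all) had a peak over a start in R1 and in R2. Of 15812 protein-coding genes with such a window, 70.0% had one in R1, 70.9% in R2 and 69.1% in both. HMOX1 and SLC7A11 had no window in the table used, and each had a peak within 1000 bp of an end of its interval in R1 and R2, as did 73.9% of 19970 genes. Every one of the 14 windows was overlapped by a peak in R1 and in R2. The 10 genes had 85 shared regions, from 4 at GCLM to 20 at TXNRD1, and at least 1 shared region each, as 91.4% of all protein-coding genes did. The median was 7.5 per member and 5 over all protein-coding genes. Members were somewhat longer, with a median interval of 29329 bp against 24190 bp. Per 100 kb of gene and flanks the medians were 9.36 and 6.96, and 9 of 10 members lay above the latter, with GCLM at 6.23 as the exception. The 46 other pathway genes described below had a median of 9.80, so this density is not particular to the members. The highest densities were 12.2 per 100 kb at KEAP1 and 12.1 at NFE2L2. The regions farthest out by the 20 kb rule lay 17043 bp from NFE2L2, with folds of 7.28 (R1) and 8.64 (R2), and 17123 bp from SLC7A11, with 7.95 and 7.28. In pairs of values R1 comes first. The nearest left out lay 20738 bp from TXNRD1, with 8.51 and 7.52, and 21059 bp from SLC7A11, with 3.14 and 3.18.

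**Figure D1:**
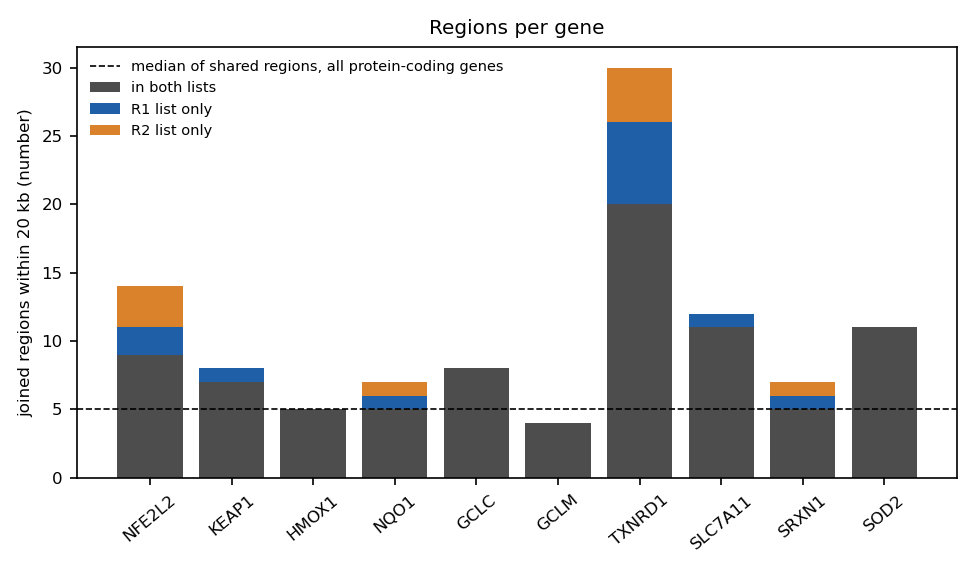
Number of joined regions (vertical axis) within 20 kb of each gene (horizontal axis), split into regions in both lists, in R1 only and in R2 only; the dashed line is the median number of shared regions over all protein-coding genes, 5. TXNRD1 has 20 shared regions and GCLM has 4.

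Of the R1 peaks, 88.1% (89 of 101, exact binomial 95% interval 80.2 to 93.7, counting error only) overlapped an R2 peak, against 87.3% over the whole list. Of the R2 peaks, 90.4% (85 of 94, interval 82.6 to 95.5) overlapped an R1 peak, against 91.8%. The regions found in 1 list, 12 in R1 and 9 in R2, lay at 6 genes: NFE2L2, KEAP1, NQO1, TXNRD1, SLC7A11 and SRXN1. TXNRD1 alone had 6 of the 12 and 4 of the 9. All lay below the median fold of their list, with highest folds of 3.58 in R1, at SLC7A11, and 2.96 in R2, at TXNRD1. The same share over all regions of 1 list in the series was not worked out, so this is not read as a trait of these genes. HMOX1, GCLC, GCLM and SOD2 had no region in 1 list only.

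**Figure D2:**
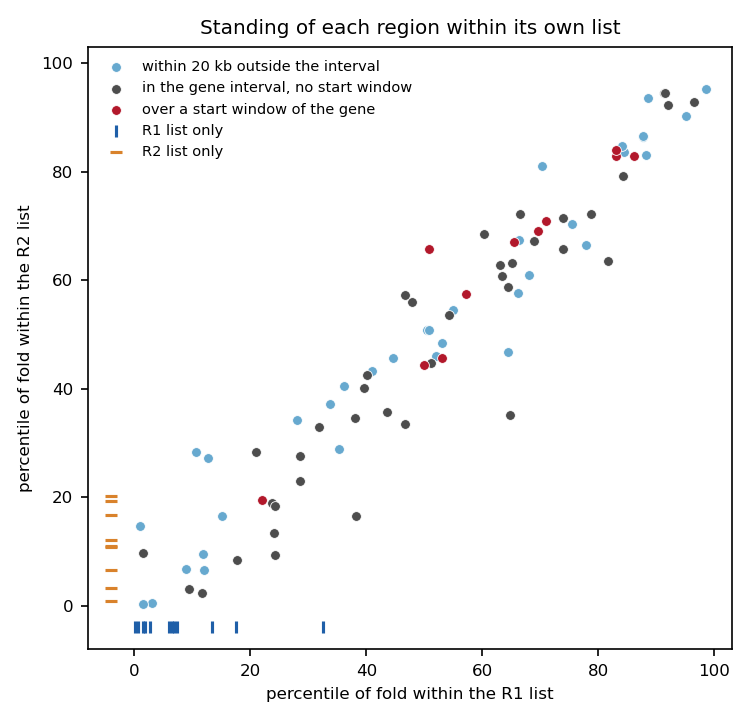
Percentile of fold enrichment within the R1 list (horizontal axis) and within the R2 list (vertical axis) for each region of the 10 genes, coloured by place; ticks along the lower and left edges are regions of 1 list only. Regions of 1 list reach percentile 32.5 in R1 and 20.2 in R2, and the start regions spread from 22.1 to 86.1 in R1.

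The fold enrichment is the authors' value of a peak over its local background and is used only within a list, whose medians are 5.04 in R1 and 5.12 in R2. The pileup, which is the count over a summit, and the local background were worked out from each peak's fold and p-value. Both are given here in fragments, but the sources used do not state the unit that was counted. A whole number of fragments fitted the deposited p-value for 100% of peaks in each list, and the median pileup was 72 in both. Of the 85 shared member regions, 42 (49.4%) had at least the median fold in both lists, against 52.6% of all shared regions. The members' starts had a lower median fold and a higher median pileup than starts over all genes, with a higher local background beside them. The median over the 8 members' start peaks, taking the best of each gene, by fold was 6.23 (R1) and 6.81 (R2) against 7.62 and 7.73 over the protein-coding genes with a start peak in both lists. Their median pileup was 343.5 and 359 fragments against 315 and 327.5, and the local background 49.2 and 50.6 against 38.4 and 39.3.

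Ranking a member's shared regions by fold or by pileup put different regions first. By mean within-list percentile of fold, the top region lay over an own start window at KEAP1 and NQO1 only, 2 of 8, against 24.3% of the 14575 protein-coding genes with a window and a shared region. By pileup it did so at NFE2L2, KEAP1, NQO1, TXNRD1, SRXN1 and SOD2, 6 of 8, against 45.4%. The ranking by pileup was added after the values were seen. At SLC7A11 both measures chose the region at the upper end of its interval, and at HMOX1 and GCLM both chose a region outside the interval. The 11 shared regions over an own start had a median width of 1738 bp, against 842.5 bp for the members' other shared regions and 834 bp over all shared regions of the series. Taking the best start peak of each gene, the median widths were 1483 and 1726 bp for the members. Over all protein-coding genes with a start peak in both lists they were 1443 and 1519 bp, so wide start regions are not particular to the members.

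**Figure D3:**
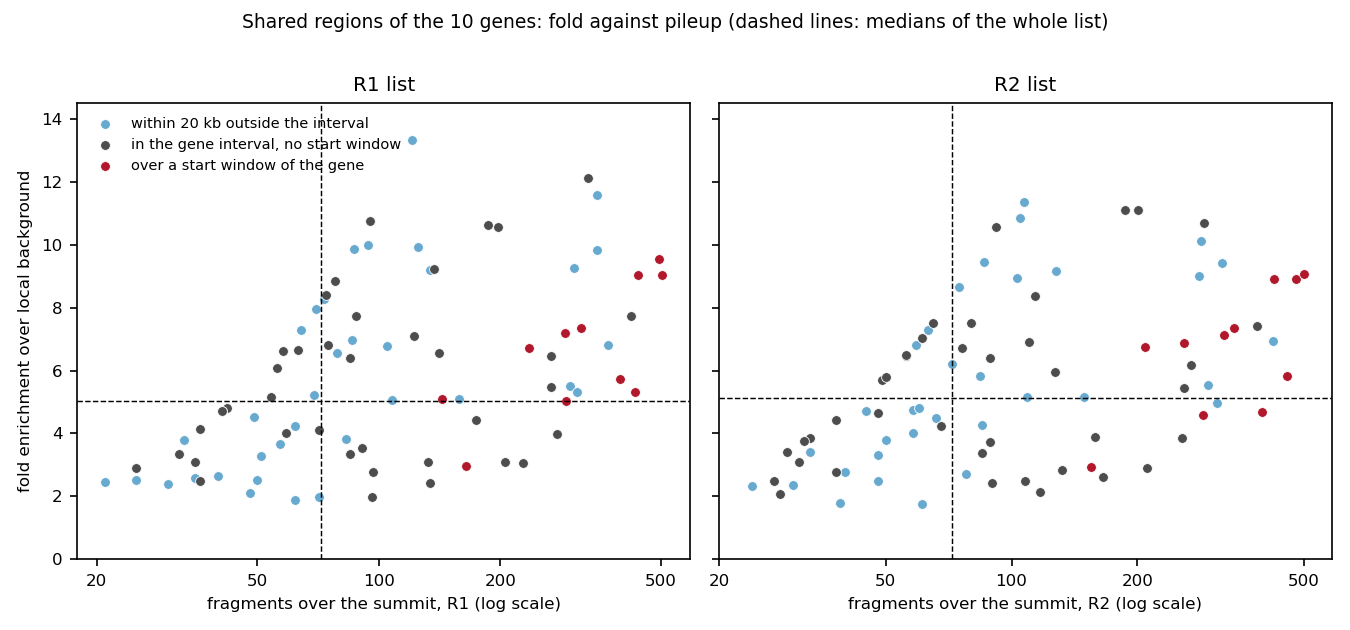
Fold enrichment over local background (vertical axis) against fragments over the summit (horizontal axis, log scale) for the shared regions of the 10 genes in R1 (left) and R2 (right), with dashed lines at the medians of the whole lists. Regions over a start (red) all have more fragments than the list median of 72, with folds from 2.97 to 9.56 in R1 and 2.95 to 9.06 in R2.

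The regulators come first. NFE2L2 (chr2:177230303-177264727, minus strand) had 9 shared regions, and 6 of them had at least the median fold in both lists. One region, chr2:177263284-177265540, covered both of its start windows, with a fold of 5.74 and 5.81 and pileups of 396 and 455, the highest of this gene. R1 split it into 2 peaks, of folds 5.74 and 5.50, where R2 had 1. The highest folds lay outside the gene at its start side: 9.94 and 8.93 at chr2:177274910-177275910, 10183 bp beyond the interval, and 7.28 and 8.64 at chr2:177281770-177282781. Within the interval 3 further shared regions had R1 folds between 4.44 and 6.45 and R2 folds between 3.90 and 6.40. The region 16692 bp past the other end, with folds of 6.80 and 6.93, lies over a start of HNRNPA3, a gene for an RNA-binding protein, and so cannot be given to NFE2L2 by distance alone. The other shared regions on that side were low, with 2.57 and 3.32 at chr2:177224119-177225804 and 2.38 and 2.35 at chr2:177228470-177229910. Regions above the list medians thus lay in the body of NFE2L2 and on its start side, and on the other side at HNRNPA3 alone.

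KEAP1 (chr19:10486125-10503356, minus strand), the sensor and inhibitor, had 7 shared regions, of which 3 had at least the median fold in both lists. The region over its 2 starts, chr19:10501838-10503587, had folds of 7.19 and 7.13 and pileups of 289 and 322, the highest of the gene by both measures. Its summits lay 1075 bp in R1 and 838 bp in R2 past the outer start, and 490 and 253 bp past the inner start. The strongest signal at KEAP1 thus covered its own starts. Next by fold came regions beyond the end of the gene, at chr19:10471821-10472495 with 6.98 and 6.20 and at chr19:10483499-10484289 with 6.78 and 5.84. The region inside the gene, chr19:10491964-10492699, had 5.15 and 4.64. On the start side the only regions were low, with folds from 3.29 to 4.50 in the shared ones, and 1 of them lies over a start of S1PR5, a sphingosine 1-phosphate receptor gene.

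Glutathione supply is represented by 3 genes. GCLC (chr6:53497341-53545101, minus strand), the catalytic subunit of glutamate-cysteine ligase, had 8 shared regions and none in 1 list only. Its start region, chr6:53544034-53545433, was the lowest of the 8 by fold, with 5.03 and 4.60, but had pileups of 291 and 287 over a local background of 57.1 and 61.6. The highest fold was in the gene body at chr6:53516820-53517743, with 10.7 and 10.6 from pileups of only 95 and 92, at the commonest background of each list. The region 12068 bp beyond the end of the gene had 9.85 and 9.46. By pileup the region 2486 bp before the interval led, with 309 in each list and folds of 5.32 and 4.95. The start of GCLC was thus last of 8 by fold and next to the top by pileup.

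GCLM (chr1:93885199-93909430, minus strand), the modifier subunit of the same enzyme, had 4 shared regions, the fewest of the members. Its start region, chr1:93908407-93910144, had folds of 6.71 and 6.88 and pileups of 235 and 259. The only shared region above it, with folds of 11.6 and 10.1 at chr1:93878382-93879704, lies over a start of DNTTIP2, a neighbouring gene, 5495 bp past the end of GCLM. Apart from the start region, no region was called in the 20 kb before the gene, and the remaining ones had folds of 3.82 and 4.28 and of 2.78 and 2.41.

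SLC7A11 (chr4:138164097-138242349), the cystine transporter that feeds glutathione synthesis, had 11 shared regions and the strongest gene-end region of the members by fold. That region, chr4:138241649-138243058, had folds of 12.1 and 10.7 and pileups of 329 and 288. A second within the gene, chr4:138235376-138236553, had 10.6 and 11.1, and one 4557 bp below the interval, chr4:138158286-138159540, had 10.003 and 10.8. These are 3 of the 7 member regions at or above the 90th percentile by mean within-list percentile. Of the 11 regions, 7 lay at the commonest background of both lists, 7.93 and 7.79 fragments, and 13 of the 85 regions of all members did (15.3%, these 7 included). Over the whole lists 30.8% of R1 peaks and 30.2% of R2 peaks lay at that background. These shares count all peaks of each list alone, whether found in the other list or not. The 15.3% counts shared regions that lay at it in both lists, so it is not directly comparable with them. The body region chr4:138199464-138199990 stood at percentile 64.8 within R1 (fold 6.61) and 35.1 within R2 (fold 3.87).

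The thioredoxin side is represented by TXNRD1 and SRXN1. TXNRD1 (chr12:104215779-104350307, plus strand), thioredoxin reductase 1, is the longest member and had 20 shared regions, 15 of which lay below the median fold in both lists. The strongest member region by fold lay 13957 bp before its first start, at chr12:104201024-104201822, with 13.3 and 11.4 (percentiles 98.6 and 95.3) and pileups of 121 and 107. The first start had the weakest start region of all members, 2.97 and 2.95 at chr12:104215656-104216095, over a local background of 54.5 and 52.0. A wider region inside the gene, chr12:104218895-104220450, had 7.73 and 7.41 with pileups of 422 and 387. In both lists the first start was thus weaker than this region near it. The second start, inside the interval, lay under chr12:104286037-104287738 with folds of 5.32 and 4.69 and pileups of 431 and 396, over the highest background of the member starts, 80.2 and 83.6. The 4 regions next to the second start, at chr12:104276185-104289194, had 96 to 276 fragments (R1) and 108 to 256 (R2) at folds of 1.97 to 3.97 and 2.50 to 3.85. The starts of TXNRD1 and these neighbours thus had more fragments than the list median at low to middling folds.

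SRXN1 (chr20:646615-653200, minus strand), the sulfiredoxin that reactivates oxidised peroxiredoxins, is the shortest member and had 5 shared regions. Its start region, chr20:651970-653942, had folds of 5.10 and 6.74 with pileups of 143 and 208, and the summits lay 287 bp past the start in R1 and at -220 in R2. A narrower region 519 bp beyond the other end, chr20:645295-646096, had the higher folds of 9.21 and 9.17, with pileups of 134 and 128. Of the others, 1 lies within 1000 bp of an end of SCRT2 (folds 3.79 and 3.42).

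Quinone and haem metabolism is represented by NQO1 and HMOX1. NQO1 (chr16:69709401-69726560, minus strand), the quinone reductase often used as a readout of NRF2, had 5 shared regions. Its start region, chr16:69726091-69727318, was first by both measures, with folds of 9.04 and 8.91, pileups of 439 and 425 and the summit at -245 in both lists. It also covers a start of NQO1-DT, a divergent transcript gene by its name. The region at the other end of the gene, chr16:69709280-69710153, had 7.10 and 6.91 and lies over a start of the antisense gene NQO1-AS1. Upstream of NQO1 the regions were weak, the only shared one having folds of 2.52 and 2.34.

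HMOX1 (chr22:35381096-35394207), haem oxygenase 1, which turns haem into biliverdin, carbon monoxide and iron, had 5 regions, all shared. In mouse its induction runs largely through distal enhancers before the gene. The region at its lower end, chr22:35380593-35381886, had folds of 5.46 and 5.45 and pileups of 267 and 259. Below the interval lay regions at 3552 bp (5.52 and 5.54), at 8655 bp (9.85 and 9.43, pileups of 348 and 318, at chr22:35371411-35372441) and at 16398 bp (5.22 and 4.74). No region lay in the gene away from its lower end. The remaining one, with 9.28 and 8.99, lies at an end of MCM5, a replicative helicase gene. The median pileup of the HMOX1 regions, 297 in R1 and 280 in R2, was the highest of the members.

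SOD2 (chr6:159669069-159762281, minus strand) had 11 shared regions and none in 1 list only. RefSeq gives it 4 starts, which lie in 3 regions. The innermost start, under chr6:159692255-159694393, had folds of 7.36 and 7.35 and pileups of 317 and 340. The middle pair shares chr6:159726510-159728188 with a start of WTAP, with 9.56 and 8.91. The outermost lies under chr6:159760420-159762913, at the end of ACAT2, with 9.04 and 9.06 and pileups of 504 and 501, the highest of any member region. Each SOD2 start thus lay in a region above the list medians. Between the inner starts the body region chr6:159700934-159702349 had the highest fold of the gene, 10.6 and 11.1, and chr6:159716404-159717378 had 9.24 and 8.38. The median fold over its regions, 8.29 and 7.35, was the highest of the members. The regions shared with WTAP and ACAT2 cannot be assigned to 1 gene by position. Whether regions lie in exons or introns was not analysed here for any member.

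**Figure D4:**
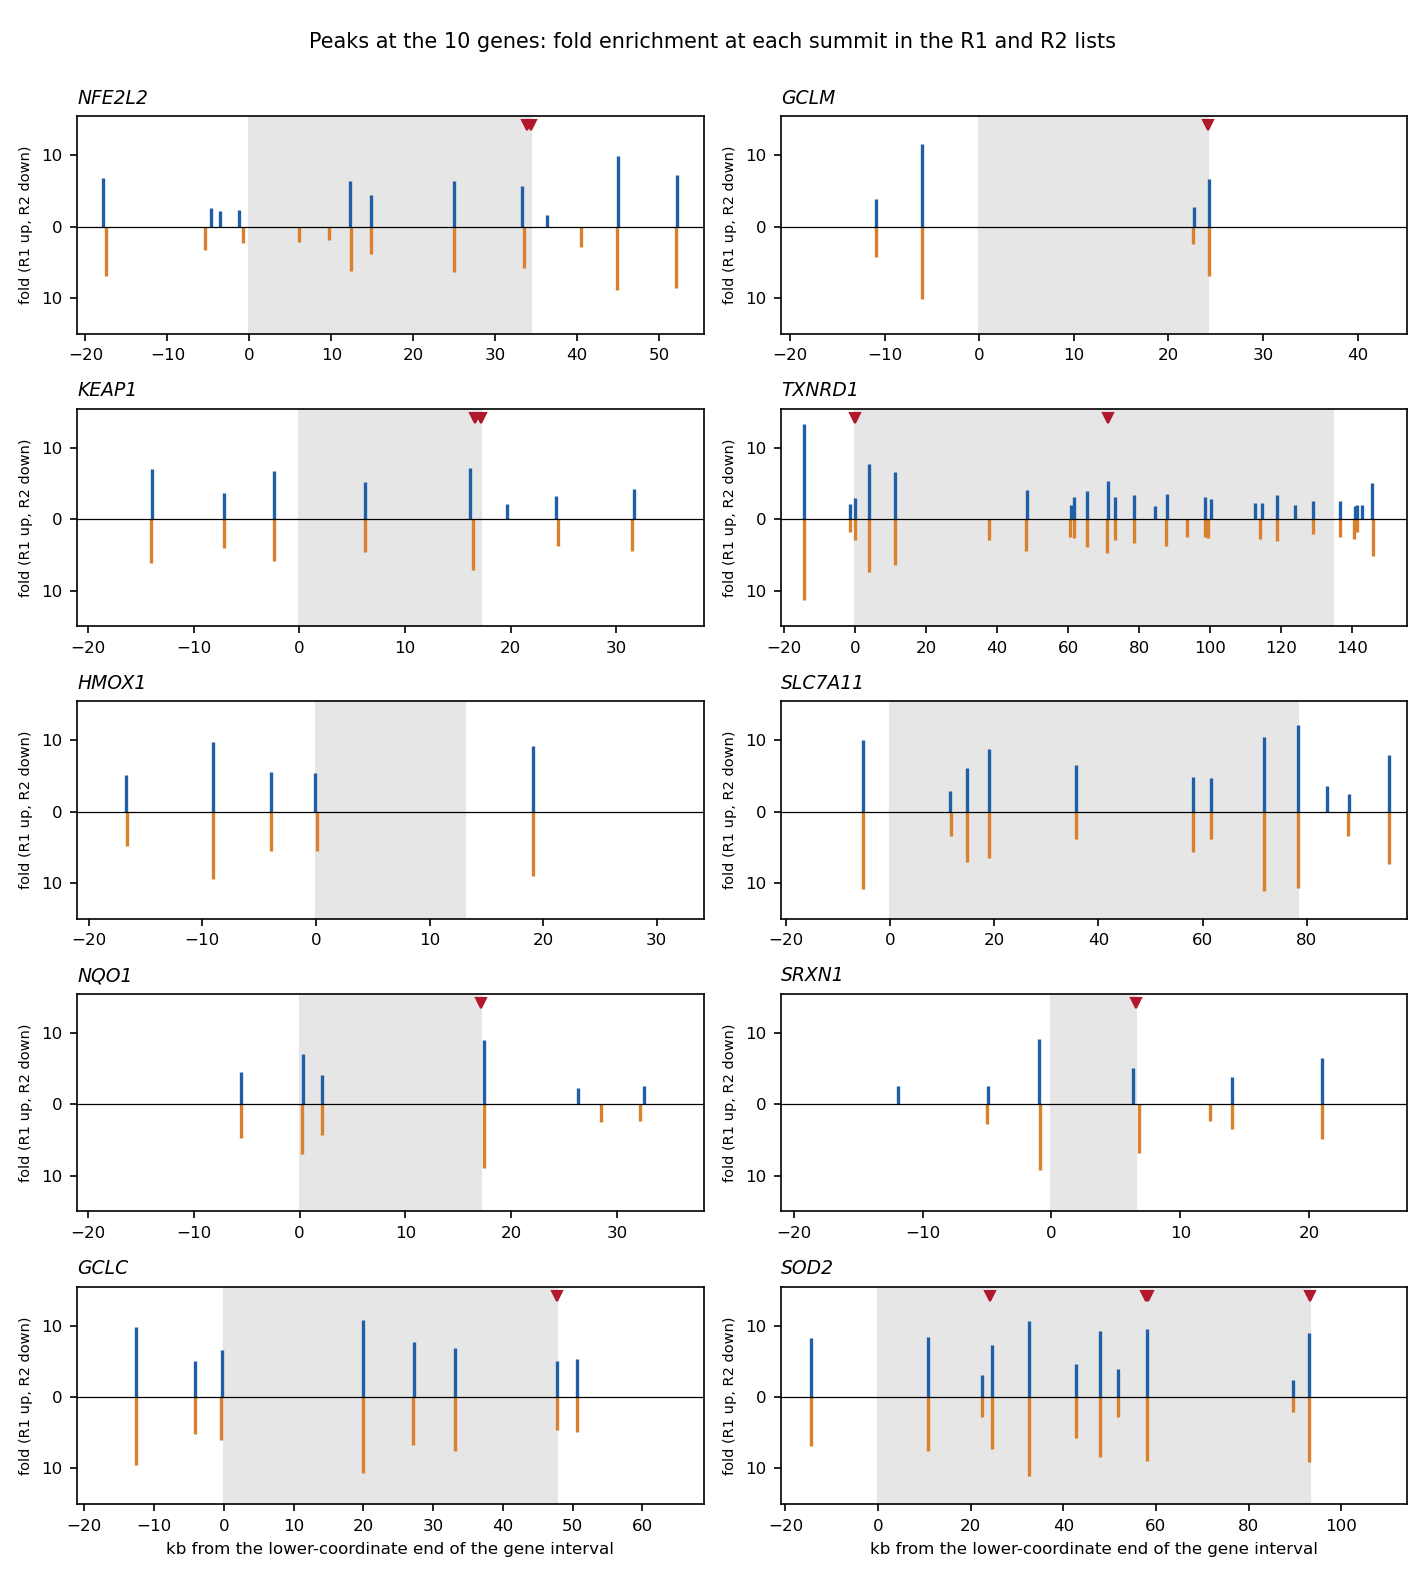
Fold enrichment at each peak summit (vertical axis; R1 upward in blue, R2 downward in orange) by distance from the lower-coordinate end of the gene interval in kb (horizontal axis) for the 10 genes; grey bands are gene intervals and red triangles RefSeq starts. The tallest bar, 13.3 in R1, lies before the first start of TXNRD1, and the body of that gene holds many low bars.

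The start windows were then searched for motifs. The core TGACNNNGC occurred in 4 of 14 member windows, at 3 of 8 genes (GCLM, TXNRD1 and KEAP1), against 13.3% of all 35116 promoter windows. Among the other pathway genes described below it occurred in 9 of 51 windows, at 9 of 34 genes. The members' windows were rich in G and C, with a median of 70.8% against 58.7% over all windows, and the part of this in the motif counts was not tested. In GCLM the core lies at -34 to -26, and the peak summits lay 4 bp from its middle in R1 and 35 bp in R2. At the second TXNRD1 start it lies at -102 to -94, with summits at 43 and 205 bp. The first TXNRD1 window has cores at -99 to -91 and at -8 to 0, the latter 9 bp from the summit in both lists. The inner KEAP1 window has cores at -54 to -46 and -31 to -23, with summits 280 to 540 bp away. Each of these cores lay within a peak of both lists. At GCLM, the second TXNRD1 start and the inner KEAP1 start it could not be otherwise, since peaks covered all 300 bases of the window.

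Read on the strand of the core with 3 bases before and 6 after, the sites picked below show how alike some are, and capitals mark the core. The other member cores, TGACACGGC at -54 in KEAP1 and TGACGGAGC at -8 in the first TXNRD1 window, are left out.
GCLM: caaTGACTAAGCagaaat
KEAP1 at -31: ccaTGACTAAGCagagcc
TXNRD1 second start: gaaTGACAAAGCagaaat
TXNRD1 first start at -99: ctaTGACTTCGCtgttgt
The GCLM and KEAP1 cores have the same letters, and the GCLM and second TXNRD1 sites have the same 6 bases after the core. No member window held TGACTCAGC, the form of the core that also contains an AP-1 site (0.561% of all windows), nor TGANTCA, the AP-1 motif (7.71%). None held TGATGNAA, the core of the amino acid response element (3.62%), nor the kappaB motif (11.3%). The looser core TGANNNNGC, which includes every TGACNNNGC, was in 9 windows of 6 genes against 41.8% of all windows, and GGGCGG, the GC box, in 12 of 14 windows against 45.0%. Matches are descriptions of letters in these short windows. NRF2 elements farther from a start could not be searched, and no binding was measured.

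The rest of the pathway was described with 46 further genes. Of the 34 with a start window, 31 had a start peak in R1 and R2 and 3 had none, beside the 69.1% of all genes given above. By peaks within 1000 bp of a gene end the count was 45 of 46, against 73.9%. The median start fold was 6.67 and 6.86, below the 7.62 and 7.73 of all protein-coding genes with a start peak, as for the 8 members with a window. Their median start pileup was 334 and 347, against 315 and 327.5. All 8 regulators with a window had a start peak in both lists, with a median fold of 4.63 and 4.65. Their folds ran from 2.92 and 2.41 at NFE2L3, a relative of NFE2L2, to 10.3 and 9.55 at RBX1, a ligase subunit. Pileups at these regulator starts ran from 112 and 94 at NFE2L3 to 587 and 535 at RBX1. Their local backgrounds ran from 37.7 and 38.4 at NFE2L3 to 91.5 and 91.0 at NFE2L1, against medians of 38.4 and 39.3 over all genes. BACH1, which represses HMOX1, had folds of 4.37 and 4.48. MAFG, a partner of NRF2, had folds of 4.01 and 4.11 with pileups of 302 and 327. Of 18 targets with a window, 15 had a start peak in both lists, with a median fold of 7.43 and 7.02, and of 8 other antioxidant enzymes all 8 did, with a median fold of 6.97 and 7.31.

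The highest start folds in this list were at PRDX3, the mitochondrial peroxiredoxin gene, with 13.1 and 12.8, and CBR1, a carbonyl reductase gene, with 10.1 and 12.2. CAT, the catalase gene, had 10.4 and 9.88, RBX1 10.3 and 9.55, and AKR1C3, an aldo-keto reductase gene, 9.38 and 10.1. The AKR1C3 folds came from pileups of only 85 and 88 over backgrounds of 8.17 and 7.79, where PRDX3 had pileups of 691 and 659. The genes without a start peak were AKR1C1, AKR1C2 and GPX2, the gastrointestinal glutathione peroxidase gene. The AKR1C genes are close copies of each other, and the treatment of reads that match several places is unknown here, so their values are uncertain. GPX2 holds an element core in its window at -122 to -114, under no peak. ME1, malic enzyme, and SLC3A2, the partner chain of SLC7A11, were the list's genes with TGACTCAGC in the window. ME1 had start folds of 8.49 and 7.96, with the site 39 and 24 bp from the summits, and SLC3A2 had best start folds of 7.52 and 7.45, with the site 192 and 170 bp from the summits of the peaks over it.

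The labelled cell type was checked at marker genes of the retinal pigment epithelium. Of 9 with a start window, 7 had a start peak in both lists: KRT8, LRAT, MERTK, MITF, OTX2, PAX6 and RLBP1. This is near the 69.1% of all protein-coding genes with a window, so the count says little about the cell type. RPE65 and TYR, defining genes of the mature pigmented cell, had no start peak. By peaks within 1000 bp of a gene end in both lists the count was 8 of 11 for these markers, beside 73.9% of all genes. For 6 markers of blood, endothelium and liver it was 2, CD3E and APOA1. PTPRC and CDH5 had a gene-end peak in R1 only, and PECAM1 and ALB had none in either list. PTPRC still had 15 shared regions within 20 kb and PECAM1 13, while ALB had 0. An open start is not a measure of expression, and RNA was not measured here.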

How the data were processed

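ATAC-seq libraries of hTERT-RPE1 cells were made by tagmentation with Tn5, per the labels' protocols. A merged list for each set was deposited on hg38, per the submitters' processing notes. Which aligner and caller were used, with what settings and Tn5 shift, is not given in the sources used here. For each peak the authors deposited a fold enrichment, which is a ratio, the p-value and q-value as −log10, a score that is 10 times the −log10 q cut to a whole number, and the offset of the summit.

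Peaks on chromosomes 1 to 22 and X were used. Gene intervals and start windows came from RefSeq tables of GRCh38.p14, matched by symbol: 10 of 10 members had an interval and 8 of 10 a window. Regions of both lists were joined at an overlap of at least 1 bp. Percentiles are ranks of fold within a list. Pileup and local background were solved from the p-value, read as a Poisson tail, and the fold, read as (pileup + 1)/(background + 1), to within 0.001 of the deposited −log10 p. No source states this relation. The pileup is the only measure of depth here. The intervals on shares cover counting error only. Every member was described, and of the 46 other genes those with a start peak in neither list and the 5 best by mean percentile, with regulators and genes holding an element named after their values were seen. The members and lists were chosen with earlier results of these data known. The steps were tested on simulated data. The tools were matplotlib 3.10.9, scipy 1.17.1, pandas 2.3.3 and numpy 2.4.6 under Python 3.11.15. Alternatives were q-value and fold thresholds, the overlap rule, 5 and 50 kb windows, each list alone, other start definitions and other motif forms.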

Additional observations from a re-analysis of the deposited data

How the results depend on the processing

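No paired analysis was possible because the 3 libraries of each set were deposited as 1 merged list, and for the same reason no library could be left out. Of 48 comparisons of a result with an alternative, 37 stayed within 1.5 times the reported count or within its interval. Some of these could not have moved, so the 37 is no measure of robustness. All 8 members with a window had a start peak in both lists, so each list alone or 1000 bp around the start could only give 8. For the other pathway genes these alternatives could only give 31 to 34. With the peaks of at least median fold alone, the members had 42 shared regions in place of 85, a median of 4 each, and 20 of the 34 other pathway genes with a window had a start peak in both lists, since this alternative leaves out the weaker peaks of each list by construction. The median was 4.5 with flanks of 5 kb and 13 with 50 kb. The share of R1 peaks found in R2 was 95.9% at −log10 q of at least 10 and 77.2% when each peak had to cover 50% of the other, and the share of R2 peaks found in R1 was 95.7% at −log10 q of at least 10. The number of members with an element core was 0 for TGACTCAGC and 6 for TGANNNNGC. Ranked by pileup, 6 members had their top region over a start, in place of 2 by fold, an alternative chosen after seeing the data. Regions called in 1 list only had 20 to 110 fragments in R1 and 22 to 68 in R2.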

Other observations

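Some summits of the members' shared regions fell on the same base in R1 and R2. This was so for 19 of 85 regions (22.4%), against 13.0% of all shared regions, and the median gap between the R1 and R2 summits was 15 bp against 37 bp. Among them were the NQO1 start region, the region before TXNRD1 and the region 8655 bp below HMOX1. Among start regions the widest gaps were 507 bp at SRXN1, 248 bp at the second start of TXNRD1, 237 bp at KEAP1 and 129 bp at NFE2L2. The SRXN1 region and that at the second TXNRD1 start each cover 1 start, and those at KEAP1 and NFE2L2 cover 2. The SOD2 region over 2 starts had a gap of 44 bp, and the NQO1 start region, over 1 start, had 0. Whether the number of starts bears on the gap was not tested.

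Of the 85 shared member regions, 5 lay over a start window of another gene and over none of the member's own: those at HNRNPA3, S1PR5, NQO1-AS1, GCLC-AS1 and DNTTIP2. Starts of genes without a window could not be counted, and 15812 of 19970 protein-coding genes had a window. A further 4 lay over starts of a member and of another gene together, at NQO1-DT, LOC124904221 beside GCLM, WTAP, and SOD2-OT1.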
